A study of Mus musculus with 6 samples.

Results

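The ErbB receptors and their EGF-family ligands were followed through 6 mammary tumours of mice that carry the polyomavirus middle T antigen. The members were 10 genes fixed by name: the receptors Egfr, Erbb2, Erbb3 and Erbb4 and the ligands Egf, Tgfa, Btc, Hbegf, Ereg and Areg. Every probe annotated to one of these symbols was taken, which gave 18 probes for 9 of the 10 genes, out of 34885 probes with 1 gene symbol for 19057 genes on the array. Areg was not analysed here. Of the 18 probes, 12 probes for 7 genes (Egfr, Erbb2, Erbb3, Egf, Tgfa, Btc and Hbegf) were bright enough to be tested.

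The tumours came from 12-week-old female mice of the pure FVB strain. In 3 PyMT/ETP tumours, also labelled PyMT/C5, the mice carried an endotrophin transgene on top of PyMT, and in 3 PyMT control tumours they carried PyMT alone. All 6 therefore share the middle T transgene, which the mouse mammary tumour virus promoter drives in mammary epithelium. Endotrophin is a fragment cleaved from the carboxy terminus of the collagen VI alpha 3 chain. The labels used here do not give the promoter of the endotrophin transgene, and no probe on the list checks either transgene.

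ErbB receptors are tyrosine kinases of the cell surface that pair up when an EGF-family ligand binds. Egfr binds Egf, Tgfa, Areg, Hbegf, Btc and Ereg, Erbb4 binds some of these as well as neuregulins, Erbb2 has no known ligand and serves as a partner, and Erbb3 binds neuregulins but has a weak kinase. The ligands are made as membrane-bound precursors that proteases release. In the mammary gland the family drives duct growth and milk-cell differentiation. Middle T itself recruits Src, Shc and PI3 kinase, adaptors and enzymes that activated ErbB receptors also use.

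Each tumour was hybridised to 1 Illumina bead array, and values are fluorescence intensity after normalization by the authors. The background level was put at 86.1 and its upper limit at 94.0, the level that 5% of background values would pass. Differences are given on a log2 scale after background correction and addition of 16, so that changes of dim genes are understated. A probe was tested if it lay above the limit on at least 3 of the 6 arrays. The share of all probes above the limit was 54.6% to 54.7% on each array. The authors' normalization had made the arrays equal in distribution, which fixes this share, so it says nothing about array quality. Whether every array stands for a separate mouse is not stated in the labels, and p-values therefore cover only the spread among these 6 samples. The number of arrays limits the precision, and 3 tumours against 3 cannot go below an exact two-sided permutation p of 0.1. In whole tumours, fewer cells of a type and less RNA per cell cannot be told apart.

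The luminal epithelium named by the tissue label was present: all 7 luminal markers were tested, and the keratin Krt8 was at 13.29 log2 units or more in every tumour. Of the 7, 2 had a positive and 5 a negative difference between PyMT/ETP and PyMT control tumours, and none passed. The groups did not overlap for 3, Epcam (0.41), Krt8 (-0.27) and Krt19 (-0.78), where this held for 8.17% of all tested genes. Hair shaft genes set libraries apart. Their 5 markers summed to 27 to 53 intensity units in PyMT/ETP tumours, against 45, 1689 and 2100 in PyMT control replicates 1, 2 and 3. For 4 tested keratinocyte markers the sums were 502 to 536 in PyMT/ETP and 668 to 2596 in PyMT control tumours, highest in replicate 3, and for 6 basal markers 6343 to 10858 and 9528 to 15292. Fibroblast, endothelial, adipocyte and skeletal muscle sums overlapped between the groups, and macrophage sums did not, at 3414 to 4686 in PyMT/ETP and 3094 to 3281 in PyMT control tumours. By gene, the groups did not overlap for 1 of 4 tested macrophage markers and 3 of 4 tested keratinocyte markers. The part of these cell types in the members' values was not tested.

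None of the tested members was called different in PyMT/ETP tumours. With limma and Benjamini-Hochberg adjustment over all genes, 0 of the 7 tested members passed adjusted p 0.05, 0 had an unadjusted p under 0.05, and the lowest adjusted p was 0.997. Over all 12864 tested genes 0% passed, and 4.31% had an unadjusted p under 0.05. The groups overlapped for all 7 members, where 8.17% of all tested genes had groups that did not, 4.52% with PyMT/ETP higher and 3.65% with PyMT/ETP lower. The log2 difference was positive for 6 members and negative for Hbegf alone, with a median of 0.088, while 50.8% of all tested genes were positive with a median of 0.0041.

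**Figure D1:**
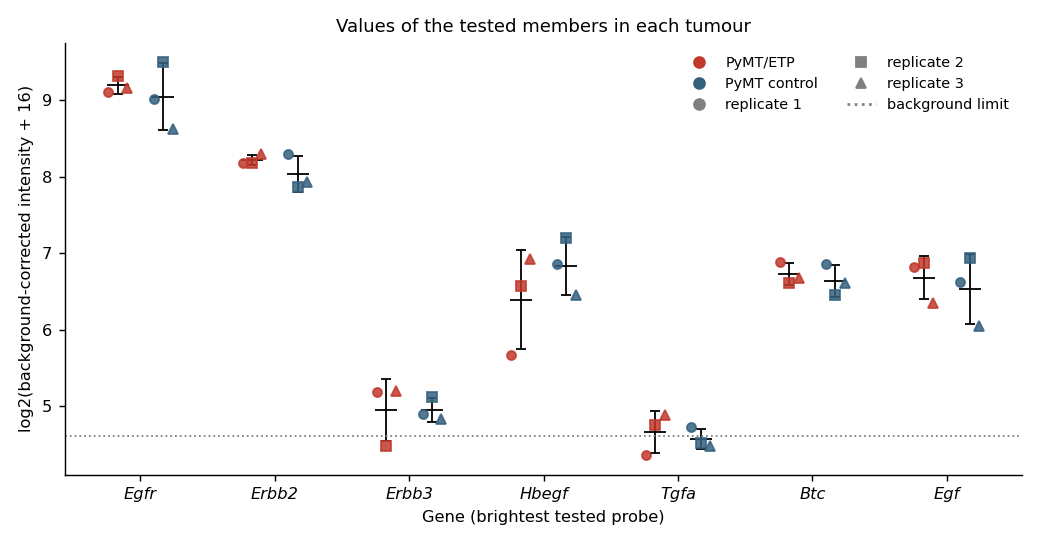
Log2 values of the brightest tested probe of each of 7 members (y axis, log2 of background-corrected intensity plus 16) in 3 PyMT/ETP (red) and 3 PyMT control (blue) tumours, with the mean and SD as black marks and the background limit, 4.61, as a dotted line. The groups overlap for every gene, and heights of different genes are from different probes and are not comparable.

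Egfr, a receptor for all of the ligands listed, was measured by more probes than any other member, 6, numbered here from the brightest down. Its brightest probe read 622, 709 and 639 intensity units in PyMT/ETP tumours, against 589, 791 and 466 in PyMT control tumours. The PyMT/ETP tumours lay together between the highest control, replicate 2, and the control replicates 1 and 3. On the log2 scale Egfr was at 9.19 ± 0.11 in PyMT/ETP and 9.05 ± 0.43 in PyMT control tumours (SD, n = 3 each). The log2 difference was 0.15 (SE 0.22), or 1.11-fold with a 95% interval of 0.785-fold to 1.56-fold (unadjusted p = 0.519, limma). Without PyMT control replicate 3 the difference was -0.063.

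The other tested Egfr probes went both ways. Probe 2 read 508, 563 and 472 in PyMT/ETP tumours and 490, 553 and 367 in PyMT control tumours, a log2 difference of 0.18 (SE 0.20). Probe 3 read 255, 239 and 249 in PyMT/ETP tumours and 241, 361 and 215 in PyMT control tumours, a log2 difference of -0.12 (SE 0.24). Probe 4 gave -0.15 (SE 0.25) with a like order of tumours. Probes 3 and 4 are annotated to a different RefSeq transcript of Egfr than probe 1. The dim probe 5 gave 0.21 (SE 0.26), and probe 6 was not above the limit on any array. The mean of the 5 tested probes gave a log2 difference of 0.052.

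What the 5 tested Egfr probes shared was a low value in PyMT control replicate 3 and a wider spread among the control tumours. All 5 were lowest in PyMT control replicate 3, by 0.36 to 0.70 log2 units under the probe's own mean. Probes 3 and 4 were highest in PyMT control replicate 2, by 0.65 and 0.64, and probe 1 was also highest there, by 0.37. Probe 2 was highest in PyMT/ETP replicate 2, by 0.24, and probe 5 in PyMT control replicate 1, by 0.44. The SD was 0.068 to 0.19 log2 units in PyMT/ETP and 0.36 to 0.57 in PyMT control tumours, lower in PyMT/ETP for 5 of 5 probes. These probes read the same 6 RNA samples and are not independent, and 53.6% of all tested genes had the lower SD in PyMT/ETP. PyMT control replicate 3 also held the highest keratinocyte and basal marker sums given above, and their part in the Egfr values was not tested.

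**Figure D2:**
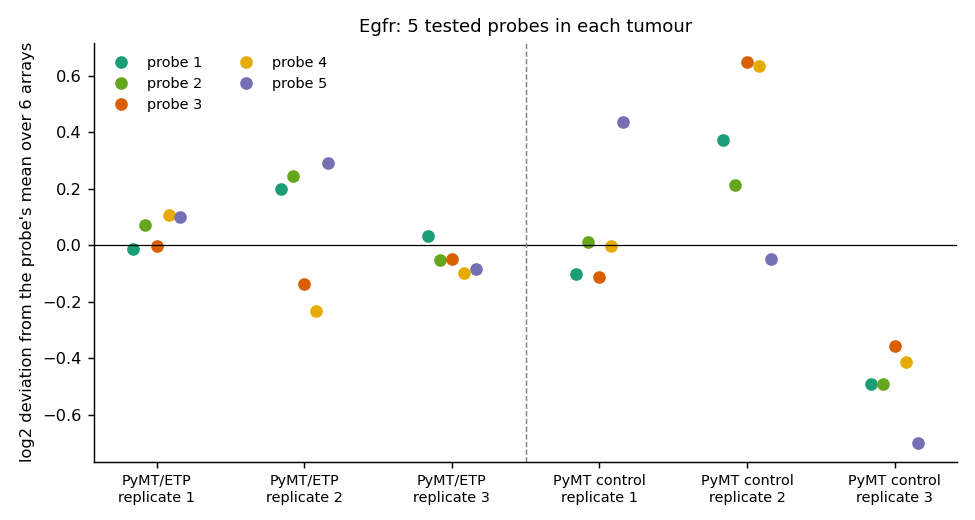
Log2 deviation of each of the 5 tested Egfr probes (colours) from its own mean over the 6 arrays, by tumour, with PyMT/ETP left and PyMT control right of the dashed line. All 5 probes are lowest in PyMT control replicate 3, and probes 3 and 4 part from probes 1 and 2 in PyMT/ETP replicate 2.

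Erbb2, the receptor without a ligand of its own and the mouse counterpart of human HER2, was measured by 1 probe. It read 360, 361 and 384 intensity units in PyMT/ETP tumours, against 386, 304 and 314 in PyMT control tumours. Control replicate 1 was above all 3 PyMT/ETP tumours, and control replicates 2 and 3 were below them. The control tumours split in the same way by the hair shaft sums given above, whose part in the Erbb2 values was not tested. Erbb2 was at 8.22 ± 0.066 log2 units in PyMT/ETP and 8.03 ± 0.23 in PyMT control tumours (SD, n = 3 each). Erbb2 thus had a log2 difference of 0.18 (SE 0.16), or 1.14-fold with a 95% interval of 0.886-fold to 1.46-fold (unadjusted p = 0.273, limma). Against PyMT control replicate 1 alone it was -0.083.

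Erbb3, which binds neuregulins and signals through its partners, was dim. Its single probe read 106, 91.0 and 107 intensity units in PyMT/ETP tumours, against 99.8, 105 and 98.5 in PyMT control tumours. PyMT/ETP replicate 2 was below the limit and the other 5 tumours were above it. Erbb3 had a log2 difference of 0.0027 (SE 0.21), with a 95% interval of -0.49 to 0.49 on the offset log2 scale.

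Erbb4, a receptor for neuregulins and for Btc and Hbegf, was not above background. Its 2 probes read 82.6 to 92.7 intensity units in PyMT/ETP and 79.3 to 91.6 in PyMT control tumours, and neither passed the limit on any of the 6 arrays. No fold change was computed.

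Among the ligands, Egf, the founding member of the family, read 183, 187 and 152 intensity units by its brighter probe in PyMT/ETP tumours, against 169, 193 and 136 in PyMT control tumours. PyMT control replicate 2 was highest and PyMT control replicate 3 lowest, as for the brightest Egfr probe. Egf was at 6.68 ± 0.28 log2 units in PyMT/ETP and 6.53 ± 0.46 in PyMT control tumours (SD, n = 3 each). The log2 difference was 0.15 (SE 0.25), or 1.11-fold with a 95% interval of 0.748-fold to 1.64-fold, and it was -0.10 without PyMT control replicate 3. The dim second probe gave -0.027 (SE 0.17). In mice Egf is made in large amounts by the submandibular gland. The 4 tested salivary markers summed to 912, 1774 and 1053 intensity units in PyMT/ETP tumours, against 1653, 881 and 923 in PyMT control tumours. The sums were mainly Dcpp1, at 9.71 to 10.71 log2 units, while Smr3a reached 6.95 at most and Smr2 and Amy1 less. The part of these markers in the Egf values was not tested.

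Btc, betacellulin, a ligand of Egfr and Erbb4, had a range of 0.44 log2 units, larger than that of 31.6% of tested genes. Its probe read 188, 168 and 173 intensity units in PyMT/ETP tumours, against 186, 157 and 168 in PyMT control tumours. Btc was at 6.72 ± 0.14 log2 units in PyMT/ETP and 6.64 ± 0.21 in PyMT control tumours (SD, n = 3 each). This gave a log2 difference of 0.086 (SE 0.16), or 1.06-fold with a 95% interval of 0.823-fold to 1.37-fold, and it was -0.010 without PyMT control replicate 2.

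Hbegf, the heparin-binding ligand of Egfr and Erbb4, had the widest range of the tested members. Its brighter probe read 121, 166 and 192 intensity units in PyMT/ETP tumours, against 187, 218 and 157 in PyMT control tumours. PyMT/ETP replicate 1 was the lowest tumour and PyMT control replicate 2 the highest, while PyMT/ETP replicates 2 and 3 lay among the controls. The range was 1.53 log2 units, larger than that of 97.3% of tested genes. Hbegf was at 6.39 ± 0.65 log2 units in PyMT/ETP and 6.84 ± 0.38 in PyMT control tumours (SD, n = 3 each). The log2 difference was -0.45 (SE 0.32), or 0.734-fold with a 95% interval of 0.441-fold to 1.22-fold (unadjusted p = 0.200, limma).

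The Hbegf difference of the brighter probe rested on PyMT/ETP replicate 1. Without that tumour it was -0.088. The same tumour had the highest fibroblast marker sum, 5913 intensity units against 2692 to 4063 in the other 5 tumours, and the highest skeletal muscle sum, 795 against 255 to 323. The muscle sum was mainly Acta1, at 9.56 log2 units in this tumour, with Tnnt3 at 5.85 and Myh4 at 4.97. This tumour also had the highest macrophage sum, 4686 against 3094 to 3911. Its luminal marker sum was the lowest, 25398 against 26158 to 32652. Its mean log2 deviation over the 7 luminal markers was -0.122, however, and that of PyMT/ETP replicate 2 was lower, at -0.131. The part of these cell types in the Hbegf value was not tested.

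The second Hbegf probe read 83.6, 78.4 and 78.0 intensity units in PyMT/ETP tumours, against 98.2, 92.3 and 94.3 in PyMT control tumours. By this probe PyMT/ETP replicate 1 was the highest of the PyMT/ETP tumours, unlike by the brighter probe. The second probe was not above the limit in any PyMT/ETP tumour and was above it in 2 of 3 PyMT control tumours, so it was not tested. PyMT control replicate 2 was under the limit too, so no fold change is given. The probe was the only one of the 18 member probes whose groups did not overlap, or 5.56%. Of all probes with 1 gene symbol, 9.11% had such groups.

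The genes whose values over the 6 arrays were most like those of Hbegf were Pvr, Rgl3 and Vill. Their centred log2 values differed from those of Hbegf by a root mean square of 0.090, 0.098 and 0.13. Pvr, which encodes the poliovirus receptor, was at 5.53, 6.51 and 6.59 in PyMT/ETP and at 6.67, 6.91 and 6.28 in PyMT control tumours. Among 12864 genes some will track any gene over 6 arrays, so this is a description only.

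Tgfa, a ligand of Egfr, was at the limit. Its probe read 87.8, 96.9 and 99.7 intensity units in PyMT/ETP tumours, against 96.4, 92.0 and 91.2 in PyMT control tumours. It was above the limit in 2 PyMT/ETP tumours and 1 PyMT control tumour. The log2 difference was 0.088 (SE 0.17), with a 95% interval of -0.31 to 0.48. Ereg, epiregulin, was not above background by either of its 2 probes, which read 82.6 to 91.4 intensity units in PyMT/ETP and 77.6 to 91.4 in PyMT control tumours. In the RefSeq order of protein-coding genes Epgn, Ereg, Areg and Btc follow each other on mouse chromosome 5.

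**Figure D3:**
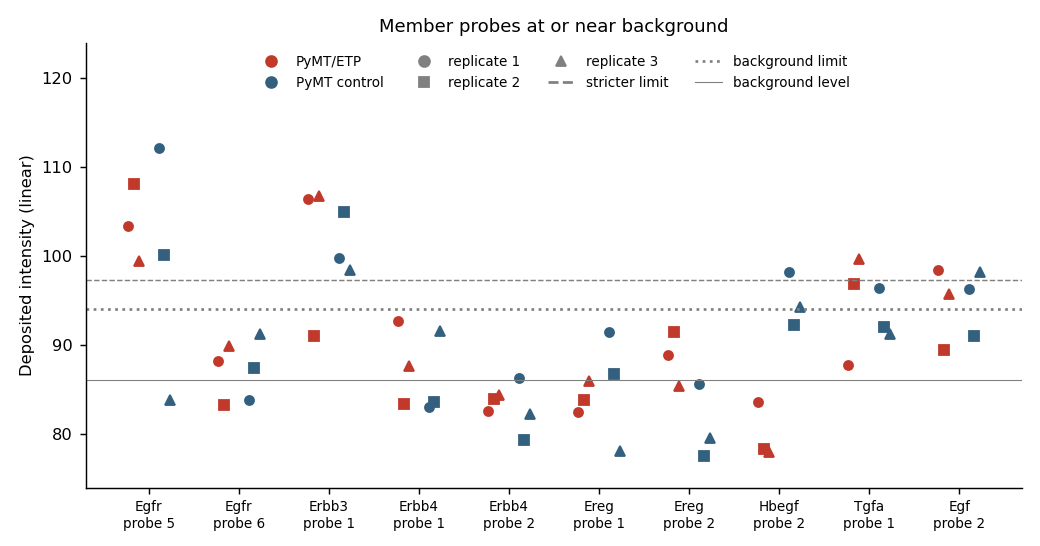
Deposited intensity (y axis, linear) of the 10 member probes that were not above the stricter limit of 97.3 on all 6 arrays, in PyMT/ETP (red) and PyMT control (blue) tumours. Both Erbb4 and both Ereg probes stay under the background limit of 94.0 in every tumour, and the second Hbegf probe passes it in 2 PyMT control tumours.

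**Figure D4:**
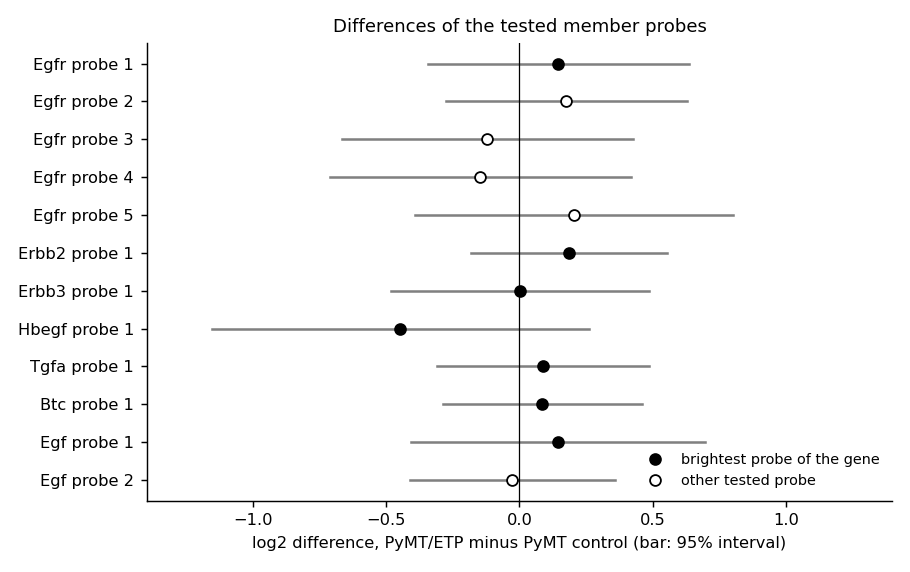
Log2 difference of PyMT/ETP minus PyMT control tumours (x axis) for the 12 tested member probes, with 95% intervals from limma's fit over all tested probes. Every interval includes 0, and the Hbegf interval is the widest.

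The rest of the pathway was read from 5 lists with 52 genes, of which 40 were tested. With limma, 0 of the 40 passed adjusted p 0.05. Of the 40, 1, Epgn, had an unadjusted p under 0.05, against 4.31% of all tested genes. The groups did not overlap for 2 of the 40, Adam10 and Spred1, against 8.17% of all tested genes. Both were higher in PyMT/ETP tumours, which holds for 4.52% of all tested genes.

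Of the other EGF-family ligands, 3 of 5 were tested, 1 with a positive and 2 with a negative log2 difference and a median of -0.040. Epgn, epigen, a further ligand of Egfr, was at 5.14, 5.82 and 5.73 log2 units in PyMT/ETP tumours, against 5.78, 6.73 and 6.20 in PyMT control tumours. PyMT/ETP replicate 1 was the lowest tumour and PyMT control replicate 2 the highest, as for Hbegf, and the groups overlapped by 1 pair of tumours. The Epgn log2 difference was -0.68 (SE 0.27), which did not pass (limma, unadjusted p = 0.035, adjusted p = 0.997). It was negative with each tumour left out, from -0.91 to -0.43, the latter without PyMT control replicate 2. With the mean of all tested Epgn probes it was -0.25, with the offset of 50 it was -0.44, with no background correction -0.32, and against PyMT control replicate 1 alone -0.22. Among the neuregulins, ligands of Erbb3 or Erbb4, Nrg4 had a log2 difference of 0.26 (SE 0.18) and Nrg1 one of -0.040 (SE 0.30). Both were near background. The Nrg4 difference was 0.092 without PyMT control replicate 1 and 0.083 with no background correction. Nrg3 was below the filter.

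Genes for ligand release had a median log2 difference of 0.030 over 6 tested members, 4 positive and 2 negative. Adam10, the protease that releases Egf and Btc, was at 6.22, 6.08 and 6.03 log2 units in PyMT/ETP tumours, against 5.90, 5.88 and 5.84 in PyMT control tumours. The difference was 0.23 (SE 0.13) and did not pass. Adam17, the protease that releases Tgfa, Hbegf, Areg and Ereg, had a log2 difference of -0.032 (SE 0.14). Rhbdf2, a rhomboid-like partner that brings Adam17 to the surface, had -0.27 (SE 0.18), and Adam12, near background, had 0.18 (SE 0.20).

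The adaptors and the Ras-ERK relay had a median log2 difference of 0.010 over 10 tested of 16 listed genes, 6 positive and 4 negative. The members nearest to the threshold were the docking protein gene Gab2 at 0.25 (SE 0.18), near background, the Ras exchange factor gene Sos2 at -0.17 (SE 0.16), Map2k2, an ERK-activating kinase, at -0.13 (SE 0.13) and Nras at -0.090 (SE 0.14).

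Feedback inhibitors of the receptors and of ERK had a median log2 difference of 0.048 over 12 tested of 15 listed genes, 7 positive and 5 negative. Dusp4, a phosphatase that acts on ERK in the nucleus, was at 9.52, 9.53 and 10.50 log2 units in PyMT/ETP tumours, against 10.28, 10.42 and 10.32 in PyMT control tumours. PyMT/ETP replicates 1 and 2 were below all controls and PyMT/ETP replicate 3 above them. The Dusp4 difference was -0.49 (SE 0.26) and did not pass. It was -0.81 without PyMT/ETP replicate 3 and -0.32 without PyMT/ETP replicate 1, and passed in neither case. Spred1, an inhibitor of Ras signalling, had 0.18 (SE 0.13), the receptor-tyrosine-kinase inhibitor gene Spry2, near background, had 0.33 (SE 0.17), and Lrig3 had -0.20 (SE 0.15).

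Genes known to respond to ERK had a median log2 difference of -0.053 over 9 tested of 10 listed genes, 4 positive and 5 negative. Among the ETS factor genes, the log2 difference of Etv1 was 0.39 (SE 0.24), that of Etv5 0.27 (SE 0.24) and that of Etv4 -0.12 (SE 0.19). With 1 tumour left out, the Etv5 difference ran from 0.078, without PyMT control replicate 3, to 0.47, without PyMT/ETP replicate 1. Fos, an immediate early gene, had -0.11 (SE 0.15). Etv1 was at 10.09, 10.71 and 10.39 log2 units in PyMT/ETP tumours, against 10.31, 10.18 and 9.52 in PyMT control tumours, lowest in PyMT control replicate 3, and without that tumour its difference was 0.15.

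**Figure D5:**
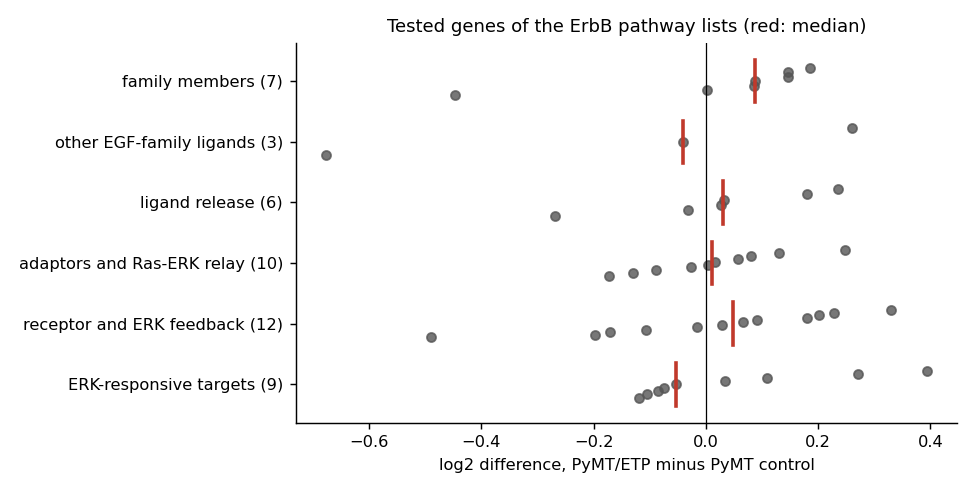
Log2 difference of PyMT/ETP minus PyMT control tumours (x axis) for each tested gene (points) of the family and of 5 pathway lists, with the median of each list in red and the number of tested genes in brackets. The medians run from -0.053 to 0.088, and Epgn, Dusp4 and Hbegf lie farthest to the negative side.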

How the data were processed

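Total RNA of 6 tumours was labelled as biotinylated cRNA and hybridised to Illumina arrays, per the labels' protocols. The deposited values are intensity on a linear scale, whose sorted values differed between arrays by at most 0.185, so the authors had made the arrays equal in distribution. The software used is not given in the sources used here. A further table with 24 value columns, named by chip and position only, was not used here, and chip position was not tested as a batch.

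Background (mode 86.1, SD 4.83, from the lowest 60% of pooled values) was removed with the normexp model of limma 3.58.1 in R 4.3.3, 16 was added and log2 taken. Probes above 94.0 on at least 3 arrays were tested (24893 probes, 12864 genes, each gene by its brightest tested probe) with lmFit and eBayes, two-sided, with Benjamini-Hochberg adjustment at 0.05. The fit was tested on simulated data. Symbols came from the platform annotation, updated through RefSeq for 34807 of 34885 probes with 1 symbol. The 10 members, 5 pathway lists and 10 marker lists were chosen with earlier results of these data known. Named are all members, up to 4 genes of smallest unadjusted p per pathway list, and for members with a range of at least 1 log2 unit the 3 genes most alike. Protein and probe sequences were not used here. The 16 alternatives are given in the closing section.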

Additional observations from a re-analysis of the deposited data

How the results depend on the processing

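No member passed adjusted p 0.05 under any of the 16 alternatives, and 0 pathway genes did. Over all genes 1 passed without PyMT control replicates 2 and 3, where the control arm is 1 tumour that is assumed to vary like the PyMT/ETP tumours, and between 0 and 16 passed with 1 tumour left out, the 16 without PyMT control replicate 1. The groups did not overlap for 0 to 2 members with 1 tumour left out (Tgfa, Erbb3, Egfr, or Btc and Erbb2), where this held for 16.2% to 21.9% of all tested genes. It held for 2, Egfr and Erbb2, without PyMT control replicates 2 and 3, where 44.3% of all tested genes had the lone control outside the PyMT/ETP range. Hbegf alone of the tested members kept its sign, negative, in all alternatives that could be run. So did the list genes Epgn, Nrg4, Adam10, Rhbdf2, Sos2, Gab2, Spry2, Spred1, Dusp4 and Etv1. The intensity trend and the replicate block cannot change a sign in this balanced design, and the list genes were picked by small unadjusted p. The share of all tested genes that kept their sign was not computed, so this is a description only.

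With 1 tumour left out, log2 differences ran from -0.063 to 0.37 for Egfr, 0.10 to 0.32 for Erbb2, -0.12 to 0.24 for Erbb3, -0.71 to -0.088 for Hbegf, -0.022 to 0.24 for Tgfa, -0.010 to 0.20 for Btc and -0.10 to 0.35 for Egf. They ran from -0.025 to 0.33, -0.33 to 0.17, -0.39 to 0.13 and -0.092 to 0.48 for Egfr probes 2 to 5, -0.12 to 0.089 for the second Egf probe, -0.41 to 0.18 for Nrg1, -0.12 to 0.018 for Adam17 and -0.28 to 0.018 for Etv4. The list medians ran from -0.41 to 0.11 for other ligands, -0.099 to 0.13 for ligand release, -0.079 to 0.035 for the adaptors, -0.044 to 0.093 for feedback and -0.12 to 0.16 for ERK-responsive genes, so every list median turned sign. Without PyMT control replicates 2 and 3 the sign turned for Erbb2 (-0.083), Tgfa (-0.063), Btc (-0.14), Egfr probes 3 (0.051) and 5 (-0.34), Nras (0.059), Fos (0.060) and Etv5 (-0.0069). It turned for Erbb3 with cyclic loess (-0.017) and array weights (-0.13). With the mean of all tested probes it turned for Nrg1 (0.11), Adam12 (-0.056), Nras (0.15), Map2k2 (0.044) and Lrig3 (0.057), whose probes therefore disagree. At the stricter background limit the median of other ligands was -0.68, the value of Epgn alone. The cause was not tested where none is given.

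Deviations of same-numbered tumours had correlations of -0.065, -0.059 and -0.11 over genes, and those of other pairs -0.012 to 0.070. Values centred within 3 tumours cannot show whether same-numbered tumours shared a batch, which was not tested. With the replicate block, 0 genes passed. The block cannot change a difference in this balanced design, so those of Egfr and Hbegf stayed at 0.15 and -0.45. Only the SE could move, and it was 0.18 for Egfr and 0.31 for Hbegf. Limits: 8 of 18 member probes were above the stricter limit on all 6 arrays, and values of Erbb3, Tgfa, Erbb4 and Ereg near background cannot show small changes. The same holds for the list genes Nrg1, Nrg4, Adam12, Gab2 and Spry2.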

Other observations

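The Egfr probes of different transcripts were set against each other after their values were seen, with no test. The brightest probe minus the mean of probes 3 and 4, centred over the 6 arrays, was -0.066, 0.38 and 0.105 log2 units in PyMT/ETP tumours, against -0.045, -0.27 and -0.11 in PyMT control tumours. The mean was 0.14 ± 0.23 in PyMT/ETP and -0.14 ± 0.12 in PyMT control tumours (SD, n = 3 each), and the groups overlapped through PyMT/ETP replicate 1.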
